A study of Mus musculus with 80 samples.

Results

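Neurofilament and neuronal intermediate filament genes were examined in RXR ChIP-Seq libraries of mouse liver, a tissue whose main cells do not express them. The 5 genes were Nefl, Nefm and Nefh (the light, medium and heavy neurofilament subunits), Ina (alpha-internexin) and Prph (peripherin), of 21911 protein-coding genes of GENCODE M21 on mm10 (GRCm38). The genes are a named family, and they were chosen by peaks in these same libraries, so the number of livers with a peak, the fold enrichment and the exonic position are given as a description with no test. Every peak interval of the 40 libraries that overlapped a gene body was taken, which gave 176 intervals with 193 summits.

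Livers came from male C57BL6/J mice, 5 months old, after 12 weeks on diet. WT mice carried no deletion, and KO mice had lost PPARγ in the liver by crossing loxP-flanked PPARγ mice to an Alb-Cre line, in which the albumin promoter drives Cre in hepatocytes, so that other liver cells keep the gene. Mice of each genotype ate a control diet (Control) or a high-fat diet (HFD), and either diet was also given with pioglitazone, a drug that activates PPARγ (Pio and HFD-Pio). There were 5 livers per group in 8 groups, each from a separate animal. For 15 KO samples (those of Pio, HFD and HFD-Pio) RXR is given in the title but the antibody label reads none, and the 5 KO Control samples are labelled with the RXR antibody.

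Neurofilaments are the main intermediate filaments of axons. Nefl forms the core and assembles with Nefm and Nefh, whose long tails extend sideways and set axon calibre. Ina joins neurofilaments of the central nervous system, and Prph is typical of peripheral and enteric neurons. RXR is the nuclear receptor that pairs with PPARγ on DNA, usually at promoters, introns and distant enhancers.

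WT libraries kept 2.04 to 4.26 Mtags (megatags, a tag being an aligned read) after removal of duplicates and held 579 to 33705 peaks, while KO libraries kept 0.628 to 1.06 Mtags and held 7630 to 30437 peaks. Peaks were called at p 0.001 in WT and at q 0.05 in KO libraries, so the genotypes differ in depth and in cutoff as well as in PPARγ. With the same minimum −log10 q of 1.3 in every library, the counts of the 5 genes called were 3 in each KO group and 0 in each WT group, as with the authors' cutoffs, whereas depth and genotype cannot be told apart. In 6 WT libraries, all Pio or HFD-Pio, the estimated fragment length was under 50 bp. These libraries held 11132 to 33705 peaks, against 1905 to 6115 in the other WT Pio and WT HFD-Pio libraries. In KO livers the estimated fragment length was 119 to 168 bp. The KO Control 4 and KO HFD 5 libraries stood apart from the other KO libraries with 7630 and 8311 peaks.

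Peaks of these genes lay mostly on exons, and the sequences below illustrate where. They are no support for it, since the genes were chosen by their peaks and the Ina and Nefm windows were picked from coding bases. Ina exon 2 is 125 bp long, lies far from either neighbouring exon and was overlapped by a peak in 12 of 20 KO livers, with the summit in the exon in 6 and 9 to 36 bp outside it in the other 6. It is shown with 40 bases of intron on each side, on chr19:47021793-47021997, plus strand, with the exon in capitals:
Ina exon 2: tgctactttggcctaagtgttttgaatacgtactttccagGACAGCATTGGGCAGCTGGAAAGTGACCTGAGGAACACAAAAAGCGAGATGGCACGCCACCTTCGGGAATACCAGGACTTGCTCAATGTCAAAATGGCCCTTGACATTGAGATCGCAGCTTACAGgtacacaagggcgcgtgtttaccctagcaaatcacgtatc
The intron bases next to the exon end in ag and begin with gt, the usual splice site letters. All sequences were read from RefSeq's GRCm38.p6 genome, which matched the spliced GENCODE transcript base for base for all 5 genes.

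The 120 coding bases that the largest number of livers shared are shown for Ina and Nefm, each read along its gene. Capitals mark bases covered in the most livers of that window, which was 19 of 40 for Ina (exon 3, chr19:47023528-47023647) and 10 for Nefm (exon 3, chr14:68120969-68121088, minus strand):
Ina window: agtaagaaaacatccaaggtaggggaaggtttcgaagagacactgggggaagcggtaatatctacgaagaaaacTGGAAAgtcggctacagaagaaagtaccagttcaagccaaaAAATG
Nefm window: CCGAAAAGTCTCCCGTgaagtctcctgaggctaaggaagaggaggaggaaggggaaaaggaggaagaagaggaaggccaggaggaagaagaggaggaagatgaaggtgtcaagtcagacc
Their G+C contents were 43.3% and 53.3%, and both lie in the part that encodes the tail.

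Of the 193 summits, 180 (93.3%) lay in an exon of the gene's protein-coding transcripts, and 9 of the other 13 lay within 36 bp of one. No more than 4 of the 176 intervals touched no exon. Peaks were shallow, with 2 to 15 tags at the summit and a median of 5. The share of exonic summits over all protein-coding genes was 78.9% in KO and 36.6% in WT livers, so most gene peaks of the KO libraries were exonic as well. Among the 5 genes, 172 intervals came from KO livers and 4 from WT livers.

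A gene was counted as called in a group when at least 3 of 5 livers had a peak over its body. By this count Ina, Nefl and Nefm were called in each of the 4 KO groups and Nefh and Prph in none. Over all 21911 genes, 24.3% were called in KO Control, 29.0% in KO Pio, 25.7% in KO HFD and 27.6% in KO HFD-Pio. None of the 5 genes was called in a WT group, where the background was 2.21% and 0.516% without the drug (WT Control, WT HFD) and 12.7% and 10% with it (WT Pio, WT HFD-Pio). The genes were chosen on these peaks, so nothing is read from the difference between their counts and the background. In whole liver, more cells of one type and more signal per cell cannot be told apart.

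**Figure D1:**
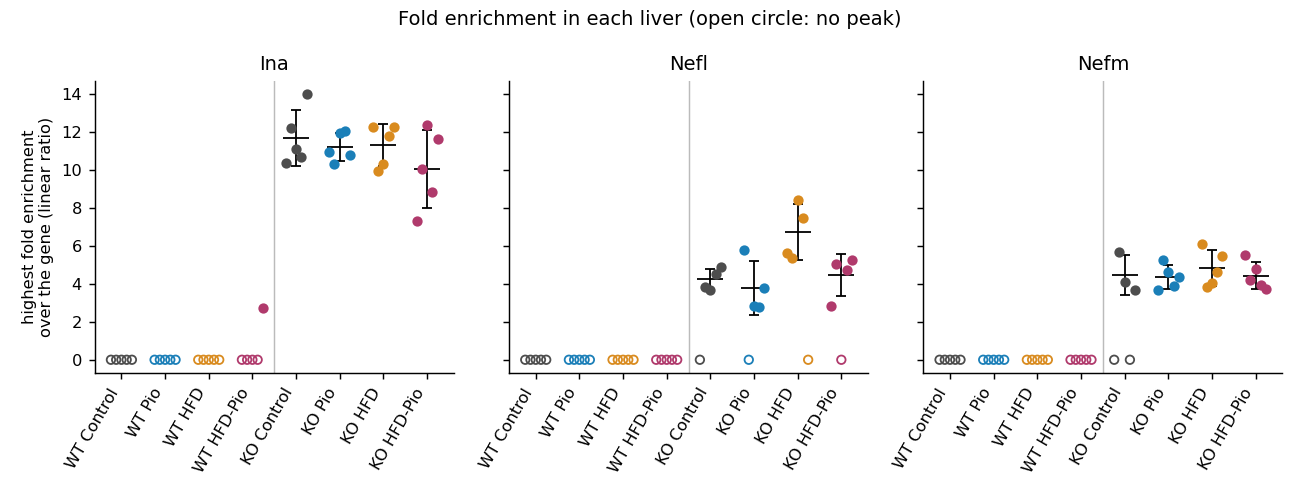
Highest fold enrichment over input (linear ratio) at Ina, Nefl and Nefm in each liver, 5 livers per group, with open circles at 0 for livers with no peak and bars for the mean and SD of the livers with one. Ina lies between 7.33 and 13.99 in the 20 KO livers and at 2.75 in 1 WT liver, and Nefl and Nefm have no WT peak.

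Ina had the strongest and most regular peaks of the family. It lies on chr19:47014698-47025327 (plus strand, ENSMUSG00000034336.3), with 3240 exon and 7390 intron bases. The highest fold enrichment (the ratio of ChIP to input background at the summit, as the authors' peak caller gave it) was 10.4, 12.2, 11.1, 10.7 and 13.99 in KO Control livers 1 to 5. In KO Pio livers it was 10.9, 10.3, 12.0, 12.1 and 10.8. In KO HFD livers it was 12.3, 9.94, 10.3, 11.8 and 12.3, and in KO HFD-Pio livers it was 7.33, 10.1, 12.4, 8.82 and 11.7. The 4 groups overlapped, and KO HFD-Pio had both the lowest liver and the widest spread (10.1 ± 2.06, SD, n = 5). The tag count at these summits was close to the fold enrichment, with 10 tags for the 10.4 of KO Control 1. There were 8 tags for the 7.33 of KO HFD-Pio 1 and 14 for the 11.7 of KO HFD-Pio 5. At Ina the fold enrichment is thus close to a tag count, and it is not corrected for depth.

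In WT livers Ina had peaks in 1 of 20, WT HFD-Pio 5, with 2 intervals of 47 bp each in exon 3 that had 2 tags and a fold enrichment of 2.75. That library was among those with a fragment length under 50 bp. Its −log10 q of 0.128 was below the 1.3 that a q of 0.05 requires, so it would not have been called at the KO cutoff.

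Ina was not alone in its regularity. Exonic summits in all 20 KO livers were seen for 1590 genes (7.26%), of which 780 (49.1%) had no exonic summit in any WT liver. Ina had one in 1 WT liver, and 993 of the 1590 genes (62.5%) had one in at most 1 WT liver. The median fold enrichment of Ina over KO livers, 11.01, was higher than that of 1328 of these 1590 genes (83.5%), whose median was 7.10.

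Along Ina the peaks followed the exons. Peaks covered 65.4% ± 7.82 of exon bases and 1.81% ± 1.63 of intron bases (SD, n = 20 KO livers). In single livers the exon share ranged from 53.4% to 79.2% and the intron share did not exceed 7.16%. A KO liver had 1 to 7 separate intervals over the gene, with a median of 5.

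Exon 3, which holds the end of the coding sequence and a 3′ UTR of 1680 bp, had a summit in 20 of 20 KO livers, with a fold enrichment from 7.07 to 13.99 and a median of 11.01. Exon 1 had a summit in 19 of 20, with none in KO Control 1, and a median of 5.78 over all 20 livers with that liver set at 0. The summit in exon 3 was higher than that in exon 1 in 19 of 20 livers, the exception being KO HFD-Pio 1 (7.07 against 7.33). The strongest summit lay in the 3′ UTR in 19 livers, and in 13 it was within 300 bp of the annotated gene end. Downstream of that end, no library had a summit within 1 kb, and upstream of the gene none had one within 5 kb.

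**Figure D2:**
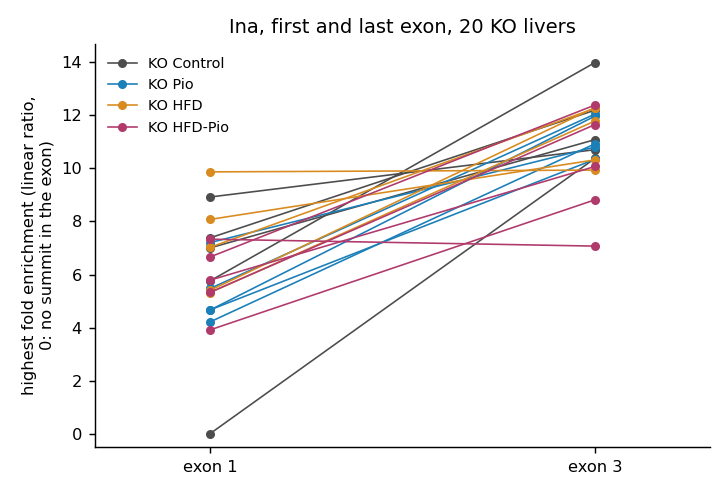
Highest fold enrichment (linear ratio) of a summit in exon 1 and in exon 3 of Ina, with 1 line per KO liver coloured by treatment and 0 where the exon held no summit. Exon 3 is higher in 19 of 20 livers, and the medians are 5.78 and 11.01.

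Exon 2, printed above, was overlapped by 12 intervals in 12 KO livers (2 of KO Control, 4 of KO Pio, 2 of KO HFD and 4 of KO HFD-Pio). These intervals were 146 to 309 bp long, longer than the exon, and the fold enrichment of their summits ranged from 2.82 to 6.60. In exon 1, the first 456 bases also belong to Nt5c2, which is annotated on the opposite strand, and peaks carry no strand. Summits in these shared bases were seen in 14 KO livers, and summits in the rest of exon 1 in 18, with a fold enrichment of 3.91 to 8.92.

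**Figure D3:**
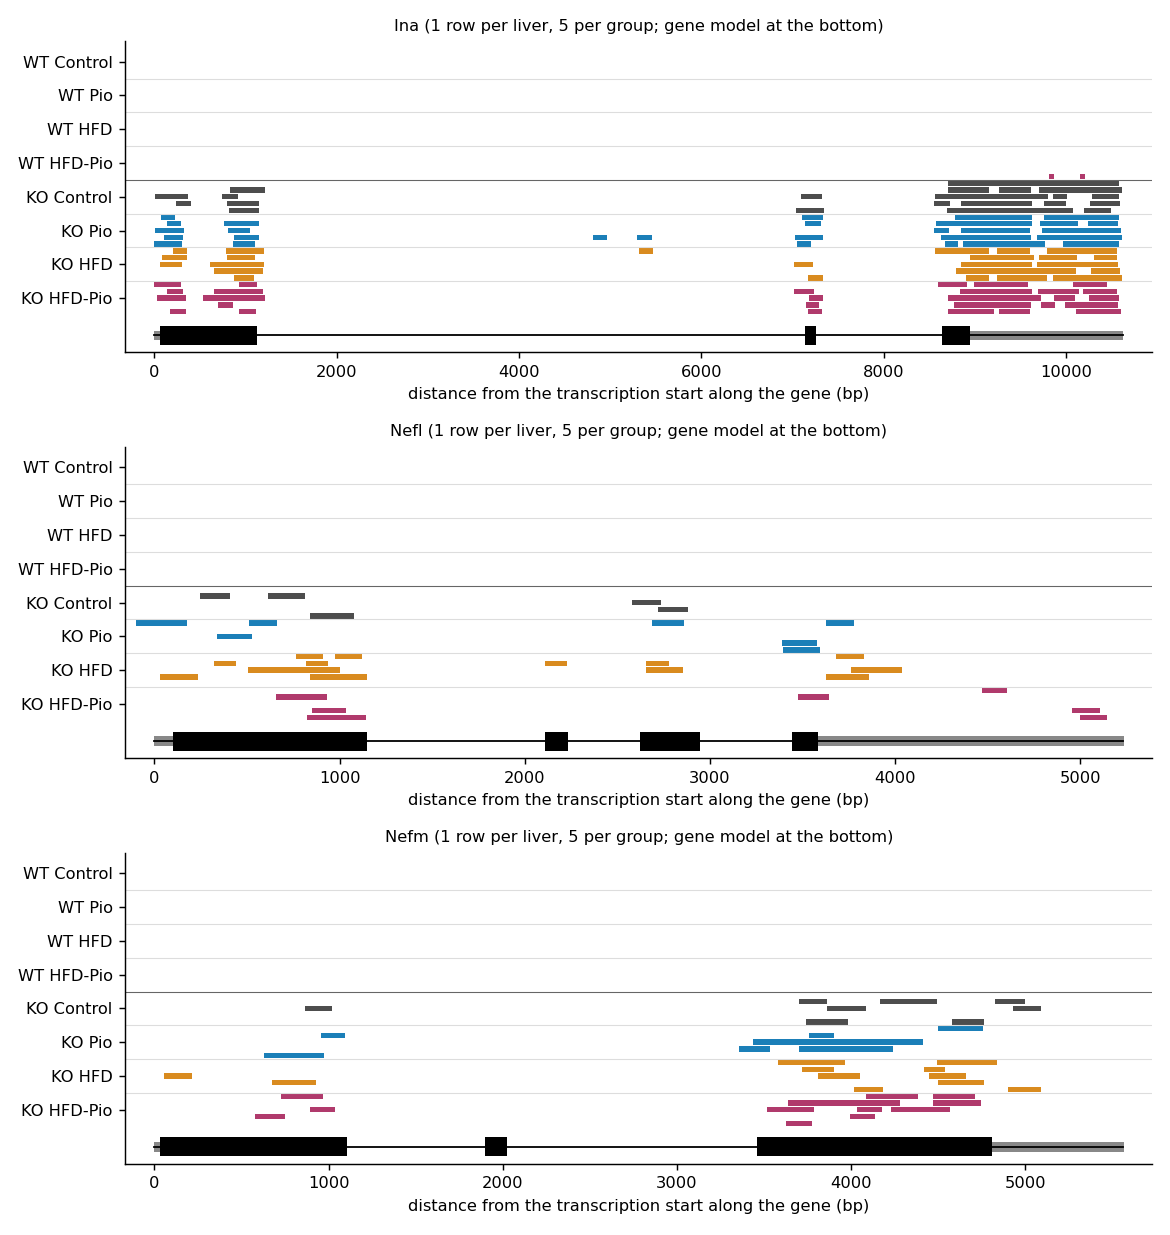
Peak intervals over Ina, Nefl and Nefm by distance from the transcription start along the gene (bp), with 1 row per liver in 8 groups of 5 and the gene model underneath (black coding exons, grey UTR, line for introns). Bars stack over exons in the KO rows, and the WT rows are empty but for 2 short bars in exon 3 of Ina in WT HFD-Pio 5.

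Nefl, the core subunit, lies on chr14:68083863-68089095 (plus strand, ENSMUSG00000022055.7) and had a peak in 16 of 20 KO livers, 4 in each KO group, and in 0 of 20 WT livers. KO Control livers 2 to 5 had a highest fold enrichment of 3.84, 3.70, 4.51 and 4.90, with no peak in liver 1. KO Pio livers 1, 3, 4 and 5 had 5.80, 2.81, 2.78 and 3.81. KO HFD livers 1 to 4 had 5.65, 5.38, 8.45 and 7.48. KO HFD-Pio livers 1, 2, 4 and 5 had 2.82, 5.06, 4.73 and 5.25. The KO HFD values lay above those of KO Control and KO HFD-Pio in the livers with a peak, and KO Pio overlapped KO HFD through its liver 1.

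Peaks covered 8.90% ± 8.0 of Nefl exon bases and 0.432% ± 1.04 of intron bases (SD, n = 20 KO livers). They were spread over the gene. Exon 1 was covered in 11 KO livers, exon 2 in 1, exon 3 in 5 and exon 4, the last, in 10. No Nefl position was covered in more than 8 livers, against 20 for Ina. The Nefl first exon overlaps an exon of an alternative Nefm transcript on the other strand, and peaks cannot be assigned to either by strand.

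Nefm, whose tail carries repeated phosphorylation motifs, was taken as its transcript Nefm-201 (chr14:68119283-68124846, minus strand, ENSMUSG00000022054.11), because the annotated gene body spans 42.3 kb and contains Nefl. It had a peak in 3 of 5 KO Control livers, in 5 of 5 in each of the other KO groups, and in no WT liver. KO Control livers 2, 3 and 5 had a highest fold enrichment of 5.66, 4.09 and 3.65. KO Pio livers 1 to 5 had 3.68, 5.25, 4.64, 3.91 and 4.37, and KO HFD livers had 6.10, 3.84, 4.07, 4.64 and 5.49. KO HFD-Pio livers had 5.52, 4.20, 4.77, 3.94 and 3.76. All 4 groups overlapped.

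Nefm peaks covered 14.5% ± 8.62 of exon bases and 0.296% ± 1.07 of intron bases (SD, n = 20 KO livers). Exon 3, which encodes the tail and the 3′ UTR, was covered in 17 KO livers and exon 1, which encodes the head and much of the rod, in 8. Exon 2, at 125 bp as short as that of Ina, was covered in none. In the annotated body beyond Nefm-201 and outside Nefl, no KO interval lay that did not also overlap Nefl, and 1 KO Pio 1 interval crossed the Nefl start with its summit just before it. WT Control 4, WT Pio 3 and WT HFD-Pio 4 had 1 peak each there, with a fold enrichment of 2.91 to 3.81.

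**Figure D4:**
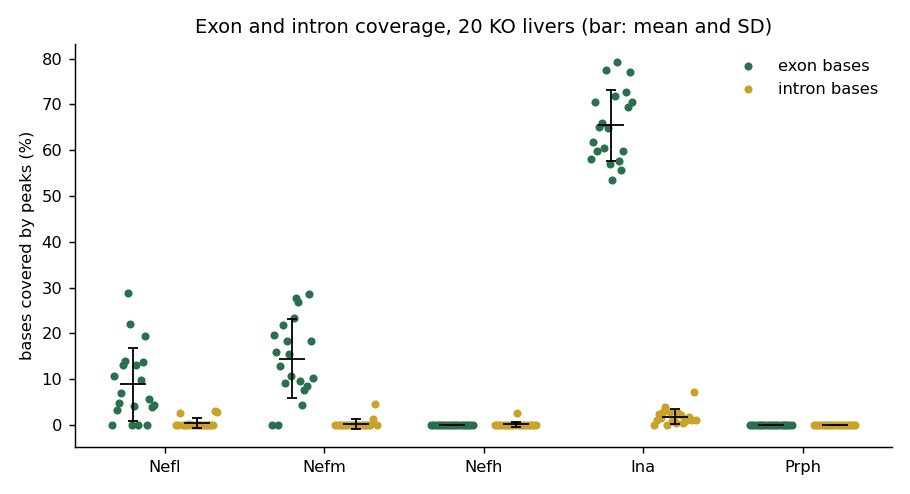
Percent of exon bases (green) and intron bases (yellow) covered by peaks for the 5 genes, with 1 point per KO liver and bars for the mean and SD. Ina exons lie between 53.4% and 79.2%, Nefl and Nefm exons between 0% and 28.8%, and introns of all 5 genes at or below 7.16%.

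Ina, Nefl and Nefm had exonic summits together in 15 of 20 KO livers, and Nefl or Nefm did in 19. KO Control 1 lacked both Nefl and Nefm, KO Control 4 lacked Nefm, and KO Pio 2, KO HFD 5 and KO HFD-Pio 3 lacked Nefl. Of these, KO Control 1, KO Control 4 and KO HFD 5 had the fewest peaks of the 20 KO libraries (14728, 7630 and 8311), whereas KO Pio 2 and KO HFD-Pio 3 had 22771 and 25016. The part of peak number in these absences was not tested. Taken over the exons of all 5 genes, 15.9% ± 3.22 of bases were covered in KO Control, 18.7% ± 2.0 in KO Pio, 19.7% ± 4.47 in KO HFD and 18.5% ± 3.68 in KO HFD-Pio (SD, n = 5), against 0%, 0.118% ± 0.161, 0% and 0.118% ± 0.264 in the WT groups in the same order. Single livers ranged from 11.8% to 18.9% in KO Control, 16.6% to 21.3% in KO Pio, 13.8% to 25.7% in KO HFD and 15.1% to 23.2% in KO HFD-Pio, so that the 4 groups overlapped. Without the libraries of few peaks, KO Control 4 and KO HFD 5, the means were 16.6% and 21.2%, and 3 genes were still called in either group.

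Nefh, the heavy subunit (chr11:4938754-4948064, minus strand, ENSMUSG00000020396.8), had no exonic summit in any of the 40 libraries, although its 3994 exon bases exceed those of Ina, Nefl and Nefm. Its single interval was intronic, 139 bp long, in KO HFD-Pio 1, with 3 tags and a fold enrichment of 3.59, 1015 bp from the nearest exon. Upstream of Nefh, 5 KO livers (KO Control 1, 2 and 3, KO Pio 2 and KO HFD 2) had a summit within 5 kb, between positions 4951215 and 4952070 of chromosome 11, with a fold enrichment of 2.72 to 3.81. No other gene of the family had more than 2 livers with a summit within 5 kb upstream.

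Prph (chr15:99055174-99058978, plus strand, ENSMUSG00000023484.14) was called in no group, with a peak in 0 of 20 KO livers and in 2 of 20 WT livers. Like Nefh and Prph, 52.0% of all genes had no exonic summit in any KO liver. WT Pio 2 had an interval of 48 bp with 3 tags and a fold enrichment of 3.74, and WT Pio 3 had one of 46 bp with 4 tags and 4.50. Both lay in coding exon 5 and overlapped, and both libraries had a fragment length estimate under 50 bp. The −log10 q values were 1.99 and 3.08, so both would also pass the KO cutoff.

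Among KO livers, treatment effects at exonic peaks were compared with limma on the log2 scale after subtracting the median over genes of each liver. The rule for the genes used no difference between KO treatments. Of genes with an exonic summit in all 10 livers of a contrast, 0% of 1896 passed an adjusted p of 0.05 with at least a 2-fold change for Pio against Control, 0% of 2075 for HFD-Pio against HFD, 0% of 1673 for HFD against Control and 0% of 2680 for HFD-Pio against Pio. At an unadjusted p under 0.05 there were 104, 86, 75 and 118 genes.

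Ina entered all 4 contrasts. On the log2 scale it differed by -0.16 (95% interval -0.47 to 0.15, adjusted p = 0.991) between Pio and Control and by -0.12 (-0.44 to 0.20, adjusted p = 0.994) between HFD-Pio and HFD. HFD differed from Control by -0.10 (-0.42 to 0.21, adjusted p = 0.985) and HFD-Pio from Pio by -0.08 (-0.41 to 0.26, adjusted p = 0.996). None passed the threshold, and none of the intervals reached a 2-fold change. Nefm had values in all 10 livers of 2 contrasts, with -0.05 (-0.41 to 0.32, adjusted p = 0.994) for HFD-Pio against HFD and 0.12 (-0.24 to 0.48, adjusted p = 0.992) for HFD-Pio against Pio.

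Nefl had values in 4 of 5 livers per group, so it was fitted among genes with at least 4 of 5, the livers without a peak being left out. On the log2 scale HFD minus Control was 0.65 (95% interval 0.25 to 1.06, unadjusted p = 0.00235), and HFD-Pio minus HFD was -0.49 (-0.91 to -0.08, unadjusted p = 0.0202). After adjustment over 2901 and 3297 genes by limma, the p-values were 0.999 and 0.929, so neither passed. Pio minus Control was -0.22 (-0.66 to 0.22, adjusted p = 0.979) and HFD-Pio minus Pio was 0.37 (-0.08 to 0.83, adjusted p = 0.987). The contrasts with HFD share the KO HFD livers, of which replicate 5 had no Nefl peak.

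In WT livers, 7.5% of 21911 genes were gained with Pio on control diet (at least 3 of 5 livers of WT Pio against 0 of 5 of WT Control) and 7.67% with HFD-Pio against HFD. None of the 5 genes was among them.

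Not all other intermediate filament genes had the KO and WT split of Ina, Nefl and Nefm. Of 19 listed genes, 9 were called in WT Pio and 7 in WT HFD-Pio, none in WT Control and WT HFD, and 3 or 4 in each KO group. In WT Pio and in WT HFD-Pio, the peak-rich libraries with short fragment estimates are enough on their own for such a call. Over all genes, 12.7% were called in WT Pio, 10% in WT HFD-Pio, 2.21% in WT Control, 0.516% in WT HFD and 24.3% to 29.0% in the KO groups. Vim (vimentin, of mesenchymal cells) had exonic summits in 20 KO livers with a median fold enrichment of 11.6 and in 9 WT livers with a median of 6.72. Lmnb1 (lamin B1, of the nuclear lamina) had them in 19 KO and 0 WT livers, and Nes (nestin, of neural progenitors) in 16 KO and 0 WT livers, with medians of 6.94 and 4.61. In contrast, Krt18, an epithelial keratin, had them in 3 KO and 7 WT livers, with medians of 3.73 and 5.62, and Krt7, of ducts, in 8 KO and 7 WT livers. Bfsp1, of the eye lens, had 11 livers with a peak and no exonic summit in any. Gfap, the astrocyte filament, had an exonic summit in 1 KO liver.

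Genes whose products move, link, phosphorylate or turn over neurofilaments were called in 5 to 7 of 8 in each KO group, against 0 to 2 of 8 in the WT groups. Over all genes, 24.3% to 29.0% were called in the KO groups and 0.516% to 12.7% in the WT groups, so KO exceeded WT there too. Exonic summits were seen in all 20 KO livers for Kif5a, Kif5b and Kif5c (the heavy chains of kinesin-1, an axonal transport motor), for Dst (dystonin, a cytoskeletal linker) and for Cdk5r1 (the p35 activator of the kinase Cdk5). Median fold enrichments over KO livers were 8.70, 4.78, 11.2, 5.74 and 12.2. Cdk5 itself had them in 11 KO livers, 5 of KO Pio, 4 of KO HFD-Pio and 1 of each of the other groups. In WT livers, Kif5b had exonic summits in 4, Dst and Cdk5 in 1 each, and Kif5a, Kif5c and Cdk5r1 in none. The lists were written with earlier results of these data known, and the counts are a description.

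**Figure D5:**
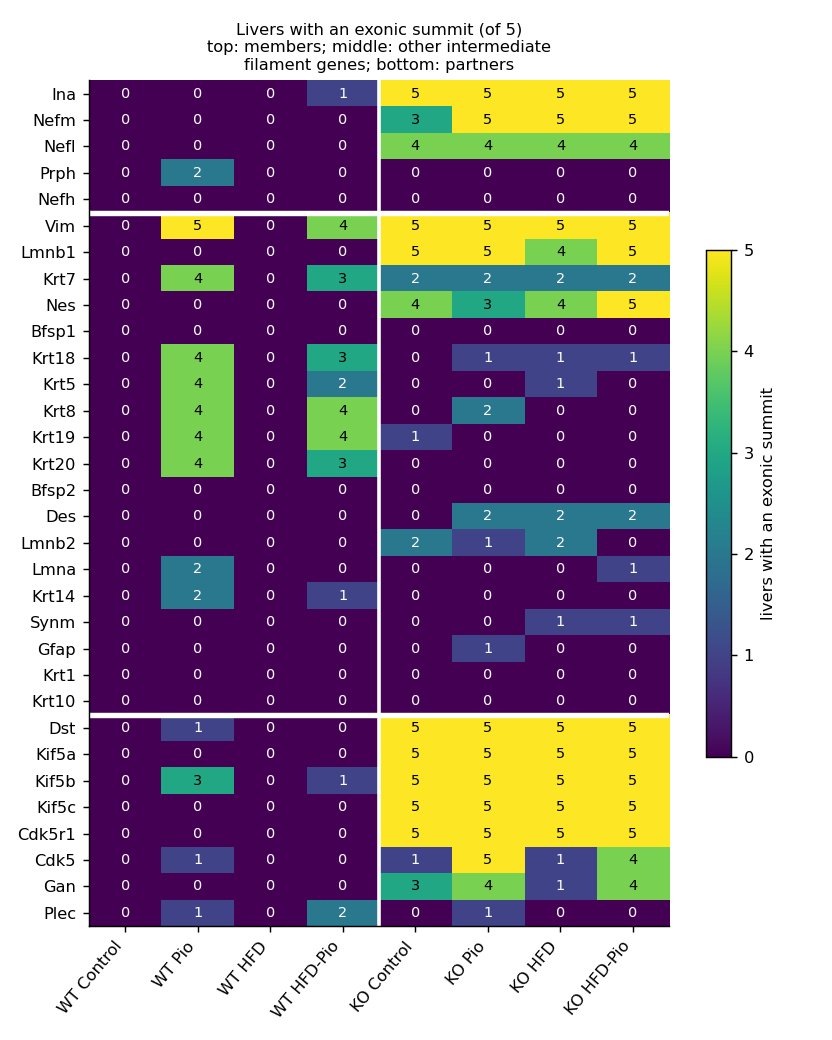
Number of livers of 5 with an exonic summit in each group, for the 5 genes (top), 19 other intermediate filament genes (middle) and 8 partner genes (bottom). The numbers of Ina, Nefl and Nefm and of most partners are 3 to 5 in KO columns, and those of several keratins are 3 or 4 in WT Pio and WT HFD-Pio.

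Markers of cell types were counted by exonic summits and by peaks over the gene body (called). All 10 neuronal markers (Snap25, Syt1, Syp, Stmn2, Tubb3, Uchl1, Elavl4, Rbfox3, Gap43 and Syn1) had exonic summits in at least 3 of 5 livers of each KO group, and their summed exonic fold enrichment was 121.8 to 207.3 per KO liver. In WT Pio and WT HFD-Pio 1 of 10 did (Tubb3), with sums of 0 to 17.2, and in WT Control and WT HFD all sums were 0. By peaks over the gene body, 10 of 10 were called in each KO group, 3 in WT Pio and 3 in WT HFD-Pio. Over all genes, 24.3% to 29.0% were called in the KO groups and 0.516% to 12.7% in the WT groups. Like Ina, Nefl and Nefm, these markers had exonic summits in more KO than WT livers. This split was not particular to them. Of the 1590 genes with exonic summits in all 20 KO livers, 780 had none in WT livers. Whether the markers vary with Ina, Nefl and Nefm among KO livers was not tested. Of the markers of peripheral or enteric neurons, Th, Dbh, Chat and Ret had no exonic summit in any library. Of 6 glial markers none reached 3 livers in any group. Of 10 hepatocyte markers, the defining cells of liver, 1 was called in each KO group (Ttr, in 20 KO livers, median 20.4) and Alb had no exonic summit in KO livers. In WT Pio and WT HFD-Pio 1 of 10 was called, Pck1, with exonic summits in 5 and 3 livers and in no KO liver. Of 7 intestinal markers 0 were called in KO groups and 2 in WT Pio and in WT HFD-Pio. Of 5 smooth muscle markers 2 to 5 were called in KO groups, 4 in WT Pio, 3 in WT HFD-Pio and 0 in WT Control and WT HFD. By exonic summits the smooth muscle count in WT Pio was 3, and the other counts of hepatocyte, intestinal and smooth muscle markers were unchanged. The summed exonic fold enrichment of the smooth muscle markers was 10.2 to 27.4 per KO liver and 0 in all WT Control and WT HFD livers. It was 3.46 to 55.2 in WT Pio and 8.77 to 68.0 in WT HFD-Pio. The KO livers thus lay above the WT livers without the drug and overlapped those with it. The part of these cell types in the peaks of the 5 genes was not tested.

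The genes whose exonic fold enrichment over the 40 libraries was most like the mean rank of Ina, Nefl and Nefm were Slc25a22 (a mitochondrial glutamate carrier, Spearman rho 0.953), Tnrc18 (0.952), Sfrp2 (a secreted Wnt modulator, 0.952), Lonrf2 (0.950) and Znrf1 (0.948). Each had exonic summits in 20 KO livers and in at most 1 WT liver. Of 5487 genes compared, 2220 had a rho of at least 0.8 and the median was 0.756, since the points share library, depth and genotype.

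The RXR-PPARγ element, 2 copies of AGGTCA with 1 base between (DR1), was searched within 100 bp of each summit on both strands, allowing 2 mismatches. It was found at 7 of 193 summits of the family (3.63%) and at 9167 of 346523 exonic KO summits of all protein-coding genes (2.65%). The family set also holds 4 WT summits and 13 summits outside exons. Of its summits 120 lie at Ina, where livers repeat the same sites, so the percentages are not a like comparison. Promoter windows (250 bases before to 50 after the start, RefSeq) were matched for Ina and Prph, and neither held the half-site AGGTCA on either strand, which 16.3% of 32851 windows did. These matches describe letters and say nothing of binding.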

How the data were processed

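RXR ChIP-Seq was performed on 40 livers with 40 inputs. The authors aligned single reads to mm10 with Novoalign (version not given in the sources used here) and called peaks with MACS2 2.1.1.20160309 against each liver's own input, at p 0.001 (WT) or q 0.05 (KO) per the file headers. The deposited peak lists give fold enrichment (a ratio to the local input background), pileup (the signal in tags at the summit) and −log10 p and −log10 q values. They hold no reads per site, so the authors' test on reads could not be repeated, the value is not corrected for depth, and intervals that need read counts were left out. Pileup and the number of livers limit the precision. A second peak file per sample held the same peaks and was not used.

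Groups were taken from the sample labels. Intervals were placed on GENCODE M21 in Python 3.11.15 with numpy 2.4.6, pandas 2.3.3 and pysam 0.24.0. Nefm was restricted to Nefm-201. limma 3.58.1 in R 4.3.3 (moderated statistics with a trend, Benjamini-Hochberg over all genes fitted) was used for 4 KO contrasts and was first tested on simulated data. It replaced the read-based test of the study.

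Members and lists were chosen with earlier results of these data known. By rule, the 5 members were named, up to 6 genes of each list called in at least 3 of 5 livers of a group, ordered by livers called and then alphabetically, and the 5 genes most like the mean rank of the members with exonic peaks in at least 5 livers, among genes with them in at least 10. Gfap was named beyond the rule after its values were seen. Some items are not reported here. Cutoffs, exon definitions, overlap rules, centring and each liver were varied (the effect is given below).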

Additional observations from a re-analysis of the deposited data

Results flagged for a closer look

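In 3 of 31 groups of livers examined for a value far from the others, 1 liver stood apart (Dixon's gap ratio, for which chance gives about 1 in 20). Peaks covered 19.4% of Nefl exon bases in KO Pio 1, against 0% to 5.59% in the other 4 KO Pio livers, with a gap ratio of 0.712 against a limit of 0.71. In WT HFD-Pio 5, peaks covered 2.90% of Ina exon bases and 0.589% of the exon bases of all 5 genes, against 0% in the other 4 livers of that group. Both values of WT HFD-Pio 5 come from the same 2 intervals of 47 bp. With 0% in the other 4 livers, any value above 0 gives a gap ratio of 1.0, so the 1 in 20 does not apply to them.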

How the results depend on the processing

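No member was called in a WT group, and 3 were called in each KO group, under a common −log10 q of 1.3, with summits required in an exon, with at least 50% of the peak in the gene body and with the whole annotated Nefm body (the last chosen after seeing the data). Stricter settings could only keep the WT counts at 0. Without the libraries under 50 bp, 2 livers remained in WT Pio and 2 in WT HFD-Pio, and no member had a peak in at least 1 of them. At a −log10 q of at least 5, and likewise at a fold enrichment of at least 5, 1 member was called in KO Control, KO Pio and KO HFD-Pio and 2 in KO HFD. With each liver left out (at least 3 of 4), the KO Control count was 2 to 3 (2 without replicate 2, 3 or 5). At a −log10 q of at least 5, exon coverage of all members was 12.4% in KO Control, 11.3% in KO Pio, 13.2% in KO HFD and 10.3% in KO HFD-Pio, as fewer peaks remained. Taking the median over peaks in place of the strongest gave a fold enrichment of 8.45, 5.92, 7.28 and 5.88 for Ina in KO Control, KO Pio, KO HFD and KO HFD-Pio and 5.00 for Nefl in KO HFD.

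Genes gained in WT Pio numbered 1643, and 857 at a −log10 q of at least 5, and with each liver left out 1073 (without WT Pio replicate 3) to 1888. In WT HFD-Pio they numbered 1681, and 684 at a −log10 q of at least 1.3, 318 at 5 and 809 with the summit in an exon, and with each liver left out 633 to 1794 (633, 707 and 670 without WT HFD-Pio replicates 1, 4 and 5). None of the 5 genes was gained under any of these, and the cause was not tested.

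In limma, 0 genes passed in each contrast, also without centring, with the mean over peaks and with at least 4 of 5 livers, and 0 to 1 with each liver left out, the 1 being without KO Control replicate 5 (Pio against Control) and without KO HFD replicate 2 (HFD against Control). The log2 change of Ina between HFD-Pio and Pio was -0.161 to 0.017 with each liver left out, and turned positive without KO HFD-Pio replicate 1. The replicate numbers did not pair the livers: correlations of same-numbered deviations ranged from -0.05 to 0.02, and the fit with the replicate block also gave 0 calls in the 4 contrasts, with 106, 82, 73 and 118 genes at an unadjusted p under 0.05.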
